A study of Mus musculus with 8 samples.

Results

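N4-acetylcytidine (ac4C) peaks were compared between Dif-FGCs and FGSCs for the genes that carried many of them. A many-peak gene was one with at least 5 peaks in each of the 4 deposited peak lists, so the genes were chosen by their measured peak counts. The rule took 281 of 11417 genes with a peak, or 2.46%, and 9583 of 75481 peaks, or 12.7%. Of the 4961 genes with a peak in every list, the 281 made up 5.66%.

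The study compared differentiated female germ cells (Dif-FGCs) with the undifferentiated female germline stem cells (FGSCs) from which they were made, both of a mouse ovarian germline stem cell line. The design text places Dif-FGCs at day 3. The methods describe differentiation as a co-culture with granulosa cells in MEM-α with serum, bFGF, retinoic acid and BMP4, whereas FGSCs were left undifferentiated. The labels give a control and a differentiated genotype term and name no further allele or agent. The 8 libraries of ac4C RNA immunoprecipitation sequencing (acRIP-seq) were 2 IP and 2 input libraries for each state, and each IP library gave 1 peak list. Nothing in the labels says that the 2 replicates of a state were separate cultures, although the study calls them biological replicates, so the spread between them may be technical.

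ac4C is an acetylated form of cytidine in RNA, and NAT10 is its known writer. It is best known from ribosomal and transfer RNA, and in messenger RNA it has been tied to stability and translation. In acRIP-seq an antibody pulls down RNA fragments that hold the mark, and a peak is a stretch where the pulled-down reads exceed those of the input. A transcript must be present to give a peak, and RNA levels were not part of these lists.

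The first transcribed bases of the genes are shown because, in many of these genes, the strongest peaks found in all 4 lists lay there. Each sequence below is 30 bases of the RefSeq start window of GRCm38.p6, read 5′ to 3′ on the gene's strand, inside a peak in all 4 lists. The capitals mark the longest run, within the first 50 bases, of cytidines that stand 3 bases apart, each with the 2 bases after it. The first 5 belong to the strongest such loci, and Pcnt, Ythdc1 and Spen were added as a gene with very many peaks, a gene whose loci were all shared and the longest run printed.
Eif5b, chr1:37998014-37998043, plus strand: ggcCGGCGGCTCtactggagacgctctagc
Hnrnpm, chr17:33685409-33685438, minus strand: gcgcgcaggcgCAGCTCgacagagcccgct
Suds3, chr5:117115960-117115989, minus strand: aggCCCCCGttgcccagcgcgggcgccggg
Rrbp1, chr2:144011214-144011243, minus strand: ccggcggagggggccgttCGCCAGCTCCGA
Zfpm1, chr8:122282143-122282172, plus strand: tggCGGCGGCCGCCGgttcgccgctcgcgg
Pcnt, chr10:76442883-76442912, minus strand: gaaCGCCCGCGAgccccgggaacgccgcgc
Ythdc1, chr5:86804271-86804300, plus strand: gccCGGCGTCGCCATCTGtgtctctctcct
Spen, chr4:141538568-141538597, minus strand: gtcCGGCAGCCACAGCGCCGGCTCCGTCGT

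The run searched was CNNCNNCNN on the transcribed strand, where N is any base, and longer runs count too. It stood in 74.8% of 119 start windows of many-peak genes that lay inside a peak in all 4 lists, and in 55.8% of 120 windows of these genes that lay inside no peak. Over all 32851 start windows of the table the share was 49.3%, and over other genes with a peak in every list it was 65.8% of the 1455 windows inside a peak in all 4 lists. Runs of 5 or more, as in Ythdc1 and Spen, stood in 23.5%, 12.5%, 8.85% and 16.4% of those 4 sets of windows. The windows with shared peaks were also the richest in G and C, with a median of 74%, against 64% in those without a peak and 56% over all windows, and the part of base composition in these shares was not tested. Start windows of the table were matched for 240 of the 281 genes.

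The lists differed in size, with 22480 and 13920 peaks in Dif-FGC 1 and 2, against 22791 and 16290 in FGSC 1 and 2. Many-peak genes held 2666 and 2280 of them in the Dif-FGC lists, which is 11.9% and 16.4%, and 2630 and 2007 in the FGSC lists, which is 11.5% and 12.3%. The median gene had 8 and 7 peaks in Dif-FGCs and 8 and 6 in FGSCs. FGSC 2 was the list that limited the choice, since 110 of the 281 genes had their lowest count there alone, against 43 in Dif-FGC 2, 8 in Dif-FGC 1 and 9 in FGSC 1. The false discovery rate that the authors give each peak had a median over these peaks of 61.6% and 100% in the Dif-FGC lists and 68.6% and 68.8% in the FGSC lists, and 0 of the 9583 peaks were at 5% or below. How that column was computed is not given in the sources used here. The same count over the peaks of all genes is not given here, so the 0 is not read as particular to many-peak genes. The peak score is 10 times the negative log10 of the p-value. Its lowest value over these peaks was 50 and 50.03 in the Dif-FGC lists and 50.25 and 50.11 in the FGSC lists.

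Among the genes with the most peaks in their poorest list was Pcnt. The gene, which encodes the centrosome scaffold pericentrin, carried 30 and 25 peaks in Dif-FGCs and 18 and 19 in FGSCs, with both Dif-FGC lists above both FGSC lists. Tnrc18, a large nuclear protein gene, carried 22 and 19 against 24 and 18, and Eif4g3, a scaffold of translation initiation, 19 and 17 against 20 and 15. Neither of these separated the states. Crocc, which encodes rootletin of the ciliary rootlet, carried 15 and 16 in Dif-FGCs and 18 and 17 in FGSCs, and here both FGSC lists were the higher. Col18a1, a basement membrane collagen gene, carried 22 and 21 against 19 and 13. The cytokinesis kinase gene Cit carried 23 and 21 against 19 and 11. In both, the Dif-FGC lists lay above the FGSC lists, and FGSC 2 was the lowest.

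Other genes high in this order held 11 to 19 peaks in every list. Among them were the kinase gene Map4k4, the centriole gene Cep164, the nuclear envelope gene Syne3, Ubap2 and the transcriptional co-regulator gene Zmiz1. Cep164 had 19 and 15 peaks in Dif-FGCs and 14 and 12 in FGSCs, and Syne3 had 15 and 15 against 12 and 12, whereas Map4k4, Ubap2 and Zmiz1 overlapped or met between the states.

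**Figure D1:**
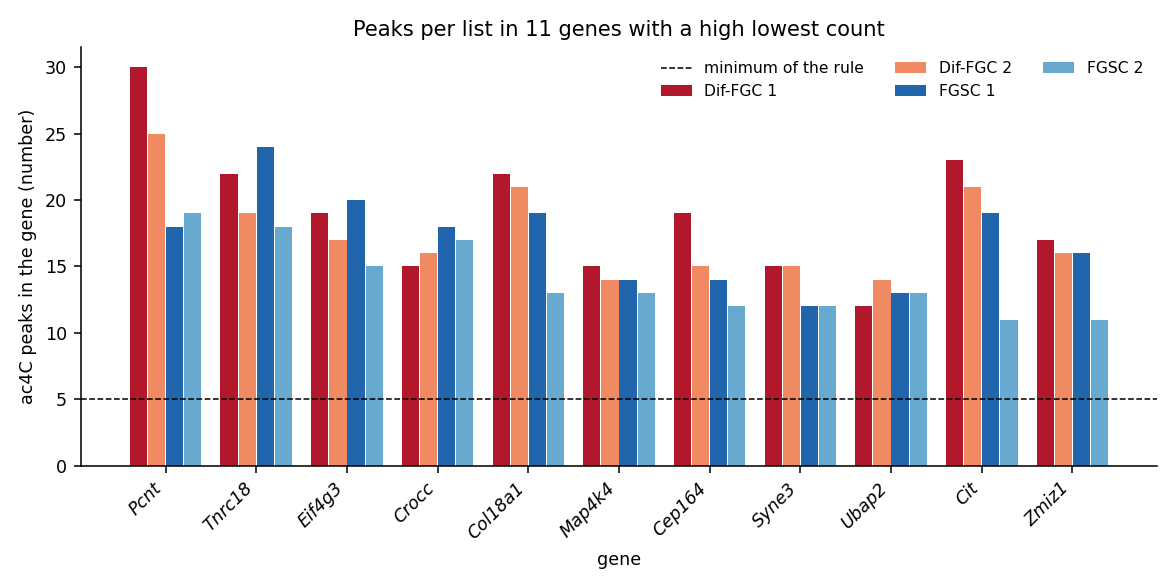
Number of ac4C peaks per gene (vertical axis) in Dif-FGC 1, Dif-FGC 2, FGSC 1 and FGSC 2 (bars, left to right) for 11 of the genes with the highest lowest count, with a dashed line at the minimum of 5. The Pcnt bars of Dif-FGCs (30 and 25) rise above those of FGSCs (18 and 19).

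Just inside the minimum, Map3k11, Nucks1, Rsph3a and Spryd3 had exactly 5 peaks in each list. Just outside it, Col4a2, a basement membrane collagen gene, had 23 and 22 peaks in Dif-FGCs and 24 and 4 in FGSCs. Dhx37 and Plcg2 had 12 and 12 against 10 and 4 each, Trio had 10 and 8 against 15 and 4, and Itsn1 had 12 and 5 against 14 and 4. A single missing peak in FGSC 2 thus kept these genes out. In all, 124 genes had a lowest count of 5 and 207 a lowest count of 4.

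Counts alone do not show whether the same places were marked, so peaks that overlapped by at least 1 bp in any list were merged into loci. The many-peak genes held 3947 loci, with 5 to 53 per gene and a median of 13. Of these, 1140 loci, or 28.9%, had a peak in all 4 lists, against a background of 15.5% over the loci of all genes, and 674 loci, or 17.1%, were in 3 lists. Both Dif-FGC lists and no FGSC list held 208 loci, or 5.27% (background 3.65%), and both FGSC lists and no Dif-FGC list held 104, or 2.63% (background 3.61%). A further 460 loci were in 1 list of each state and 1361, or 34.5%, in a single list. Among the other genes with a peak in every list the shares were 23.2% in all 4 lists, 4.16% in Dif-FGCs only, 2.91% in FGSCs only and 45.2% in a single list. A rule that asks for 5 peaks in each list favours loci that recur, so these shares are a description of the genes chosen.

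**Figure D2:**
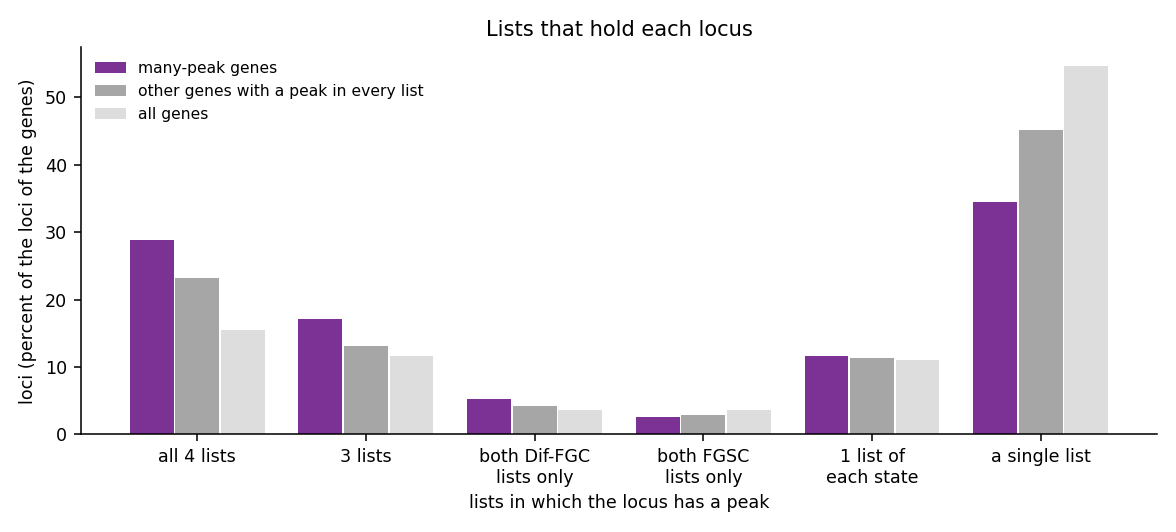
Percent of loci (vertical axis) by the lists in which a locus had a peak (horizontal axis), for the many-peak genes, the other genes with a peak in every list and all genes. Loci in all 4 lists make up 28.9% for the many-peak genes, against 23.2% and 15.5%, and loci in a single list 34.5%, against 45.2% and 54.7%.

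The larger number of loci in Dif-FGCs only depended on asking for both replicates. When a peak in at least 1 replicate of a state was enough, 785 loci of many-peak genes were in Dif-FGCs only and 888 in FGSCs only. Without FGSC 2 the counts were 355 and 607, and without FGSC 1 they were 568 and 385. Without Dif-FGC 1 they were 368 and 201, and without Dif-FGC 2 they were 625 and 174. With a list left out, 1 peak list was enough for its state, while the other state still needed both. The counts of the states are thus not at like thresholds in these settings. The replicates did not recur alike: a mean of 76.1% of the peaks of the 2 Dif-FGC lists were found again in each other, against 63.2% for the 2 FGSC lists, and between states the figure ran between 65.8% and 71.0%. By this mean over both directions the FGSC replicates were the pair with the lowest recurrence. Taken one way, 54.5% of the FGSC 1 peaks recurred in FGSC 2 and 71.9% of the FGSC 2 peaks in FGSC 1. In Dif-FGC 1 and 2, 68.4% and 66.5% of the FGSC 1 peaks recurred, and 75.1% and 71.5% of the FGSC 2 peaks. With the lists cut to equal length, 224 loci were in Dif-FGCs only and 62 in FGSCs only. The part of list size beyond that cut, and of input depth, in the balance was not tested.

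Shared loci were the strong ones, in many-peak genes as in the other genes with a peak in every list. The authors' fold, the ratio of IP over input at the peak, was ranked within each list, and a locus held in all 4 lists had a median percentile of 72.3, against 39.5 for loci in Dif-FGCs only, 42.5 for loci in FGSCs only and 30.7 for loci in a single list. In the other genes the percentile of loci in all 4 lists was 72.3 as well. Among the peaks in the top 25% of their list by fold, 74.5% and 84.3% of the peaks of many-peak genes in Dif-FGCs and 74.3% and 86.4% of those in FGSCs lay at a locus in all 4 lists. For the other genes the figures were 74.0% and 86.0% in Dif-FGCs and 72.7% and 79.0% in FGSCs. In the bottom 25% the figures of the many-peak genes were 10.4% and 18.1% in Dif-FGCs and 16.8% and 28.8% in FGSCs. In most genes the strongest locus of a list had a peak in all 4 lists. This held in 220 and 231 of the 281 genes when judged in Dif-FGCs, and in 215 and 226 when judged in FGSCs. Which locus was strongest often changed, however. The same locus was strongest in both Dif-FGC lists in 176 genes, in both FGSC lists in 152 and in every list in 97.

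The leading shared locus was in Anp32b, a gene of the acidic nuclear phosphoprotein family, at chr4:46469883-46470049 in mm10. Its fold was 1031.64 and 368.17 in Dif-FGCs and 853.16 and 1324.78 in FGSCs. In Zc3h13, which encodes a subunit of the m6A methyltransferase complex, the locus at chr14:75327544-75328144 had folds of 589.83 and 205.69 in Dif-FGCs and 954.98 and 1714.38 in FGSCs. In both genes all 4 lists placed the locus among their very strongest peaks, and the fold was lowest in Dif-FGC 2. The next loci lay in Sart3 (U6 snRNP recycling), Cdk11b, Chd3 (a chromatin remodeller), Ddx46 (a splicing helicase), Eif5b and Hnrnpm (a splicing regulator).

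Cdk11b, whose kinase acts in transcription and splicing, carried the steadiest large set, with 9 of its 10 loci in all 4 lists. It had 9 and 9 peaks in Dif-FGCs and 10 and 9 in FGSCs. The locus at chr4:155634089-155634225 had folds of 1018.77 and 416.25 in Dif-FGCs and 462.53 and 962.59 in FGSCs, and the weakest shared one, at chr4:155642485-155642575, had 4.55 and 2.80 against 6.78 and 6.83. Strong and weak peaks of Cdk11b thus recurred together, and the single locus outside the set was seen in FGSC 1 only.

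Some genes carried the same loci in every list and no others. Clint1, a clathrin-interacting gene, Ythdc1, which encodes the nuclear m6A reader, and Zfpm1, which encodes a GATA cofactor, each had 6 loci and 6 peaks per list, and Nucks1 had 5. In Ythdc1 the folds at the locus over the start, chr5:86804221-86804591, were 115.18 and 49.66 in Dif-FGCs and 112.71 and 109.22 in FGSCs, and at chr5:86815629-86815730 they were 11.82 and 6.33 against 16.14 and 11.89. In Zfpm1 the locus over the start had 417.79 and 276.65 against 216.71 and 201.05. The gene of the translation factor Eif5b had 8 of 9 loci in all 4 lists, Rrp1 (ribosomal RNA processing) 6 of 7 and Zfp362 6 of 7. Genes with many shared loci included Tnrc18 with 15 of 25, Eif4g3 with 12 of 24, Zmiz1 with 11 of 19, Crocc with 11 of 22, Pcnt with 10 of 33, and Cdk11b and the endoplasmic reticulum gene Rrbp1 (9 of 15) with 9 each. Over the 281 genes the median share of loci in all 4 lists was 33.3%, and 74 genes had at least 50% of theirs there.

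At the other end, 7 many-peak genes had 0 loci in all 4 lists, namely Dst, Cntrl, Sap130, Ltbp4, Lrrk1, Cramp1l and Med16. Dst, which encodes a giant linker of the cytoskeleton, had 26 and 6 peaks in Dif-FGCs and 17 and 9 in FGSCs, spread over 40 loci of which 28 were in a single list. Hspg2, the gene of the basement membrane proteoglycan perlecan, had the most loci, 53, with 37 in a single list, and 29 and 18 peaks against 24 and 5. Syne2, which encodes a giant nuclear envelope protein, had 29 of 42 loci in a single list, and Utrn, which encodes utrophin, 26 of 40. These genes passed the rule through peaks that rarely fell in the same place, and for Dst, Syne2 and Utrn the replicates of a state differed more than the states did.

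The loci in all 4 lists were spread along the genes. Among many-peak genes with a known strand, and counting loci centred inside the gene span, 151 of 979 such loci, or 15.4%, lay over the first 50 bases of an annotated start, against 2051 of 3971, or 51.6%, in the other genes with a peak in every list. The share of genes with a shared locus over a start, those centred just outside the span included, was closer, at 149 of 241 many-peak genes (61.8%) and 2094 of 3756 other genes (55.8%). What set the many-peak genes apart was shared loci elsewhere, which 223 of 241 had (92.5%, median 3 per gene and up to 14), against 40.7% of the other genes. The rule favours this, since a gene has few starts. The first 10% of the gene span held 18.5% of the shared loci of many-peak genes and 50.7% of those of the other genes. In many-peak genes each of the last 5 bins of 10% held more than 10% of the shared loci, and at most 12.8%.

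**Figure D3:**
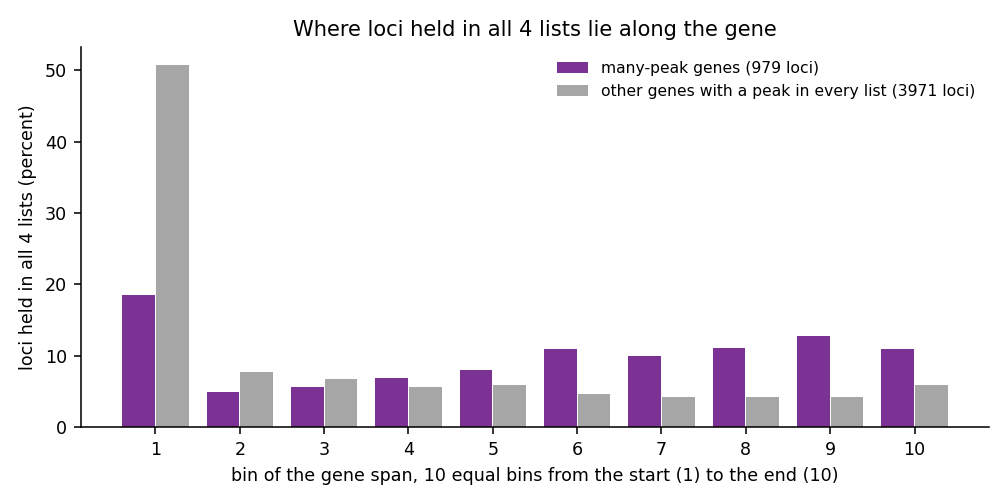
Percent of loci held in all 4 lists (vertical axis) in 10 equal bins of the gene span from start to end (horizontal axis), for many-peak genes (979 loci) and other genes with a peak in every list (3971 loci). The first bin holds 18.5% in many-peak genes and 50.7% in the other genes.

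Where a many-peak gene had a shared locus over a start, that locus was usually the strongest of its shared loci. This held in 104 of 149 genes, or 69.8%, while start loci, those centred just outside the span included, made up 153 of the 660 shared loci of these genes, or 23.2%. Strength was the mean rank of fold over the 4 lists, and by it the start loci of the 8 sequences printed above were the strongest shared loci of their genes. In single lists another locus could lead, as in Ythdc1 and Eif5b. In Eif5b the start locus had folds of 529.74 and 281.58 in Dif-FGCs and 552.69 and 456.59 in FGSCs. In Pcnt it had 163.95 and 98.72 against 117.41 and 218.35, and the other 9 shared loci of Pcnt lay below 50 in every list. In Hnrnpm it had 365.67 and 228.29 against 770.58 and 484.34. In these 3 genes the start was marked strongly in both states, and the folds of the states overlapped in Eif5b and Pcnt but not in Hnrnpm. Folds are not scaled between lists, so a gap of this kind is not a measured change. Of the peaks that covered an annotated start, 65.2% and 64.3% in Dif-FGCs and 64.2% and 70.3% in FGSCs began exactly at its first base, so peak limits followed transcript models.

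Of the loci in 1 state only, 3 of 178 placed loci in Dif-FGCs only (1.69%) and 4 of 87 in FGSCs only (4.60%) were over a start. In the other genes with a peak in every list the shares were 7.32% and 17.8%. Dnmt1, the gene of the maintenance DNA methyltransferase, had one of each, side by side. The locus in both Dif-FGC lists lay at chr9:20951846-20952623, with folds of 25.96 and 45.50. The locus in both FGSC lists lay at chr9:20952708-20952979, with folds of 32.43 and 9.76. The upstream end of each was the first base of a different annotated Dnmt1 transcript. The start window of each is shown, with the longest run of spaced cytidines in capitals as before.
Dnmt1 in Dif-FGCs, chr9:20952593-20952622, minus strand: tgaCAGCCAgggcgcgcatgcgcggggcag
Dnmt1 in FGSCs, chr9:20952934-20952963, minus strand: gtgCCTCCGttgcgcgcatgcgcactccct

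Neither Dnmt1 window holds CNNCNNCNN, and both hold the run of 12 bases gcgcgcatgcgc, which on either strand stood in 10 of the 32851 start windows, or 0.0304%. The run was counted because these Dnmt1 windows share it, and they are among the 10, so nothing is read from its rarity. Elsewhere in Dnmt1, 6 loci were in all 4 lists, at folds between 2.70 and 38.82. With 2 lists per state and no counts of reads, whether the Dnmt1 start differs between the states could not be tested per locus. Drosha, which encodes the nuclear microRNA processing enzyme, had a start locus in both FGSC lists (29.69 and 8.19) and none in Dif-FGCs, while 6 further loci of the gene were in all 4 lists. Fam193a and Triobp had a start locus in FGSCs only too, and Phc2, which encodes a Polycomb subunit, and Rufy2 had one in Dif-FGCs only. In Phc2 its folds were 48.12 and 19.37.

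**Figure D4:**
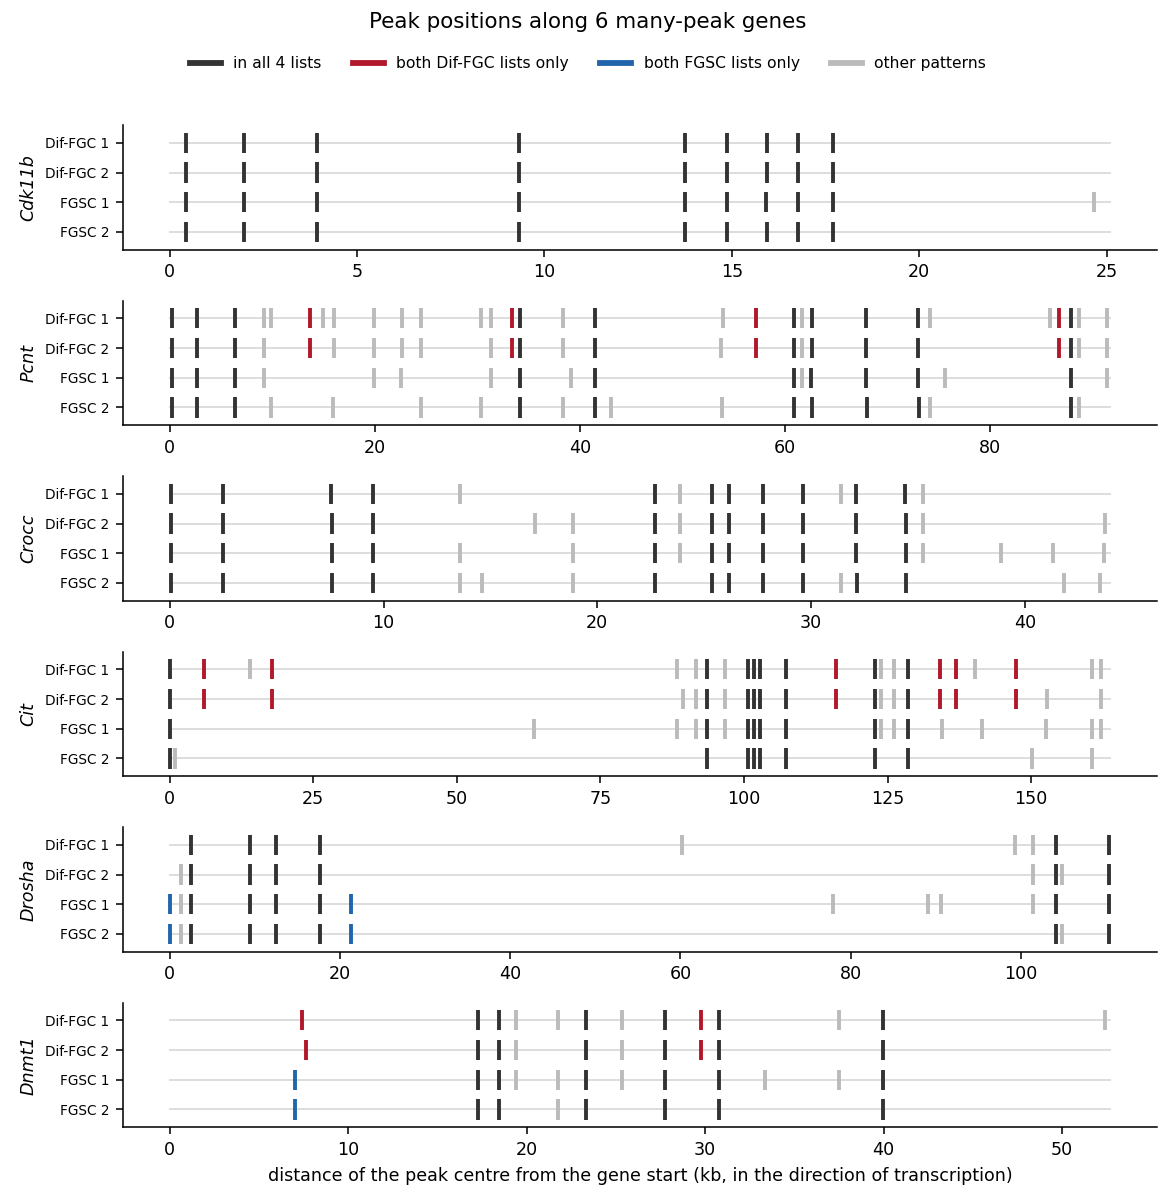
Distance of each peak centre from the gene start in kb (horizontal axis) in Dif-FGC 1, Dif-FGC 2, FGSC 1 and FGSC 2 (rows, top to bottom) for Cdk11b, Pcnt, Crocc, Cit, Drosha and Dnmt1. Black marks are loci in all 4 lists (9 in Cdk11b, 8 in Cit), red marks those in both Dif-FGC lists only (6 in Cit, 4 in Pcnt), blue marks those in both FGSC lists only (2 in Drosha), and grey marks other patterns.

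At least 1 locus in Dif-FGCs only was found in 126 of the 281 genes, and at least 1 in FGSCs only in 87. Both kinds occurred in 51 genes and neither in 119. The many-peak genes had a median of 13 loci, against 4 in the other genes with a peak in every list. More loci give more room for such a locus, so nothing is read from these gene counts. By locus the shares were 5.27% and 2.63%, against 3.65% and 3.61% over the loci of all genes. Cit led with 6 loci in Dif-FGCs only and 0 in FGSCs only. The strongest of the 6, at chr5:115982083-115982247, had folds of 37.71 and 16.53, and the other 5 had folds between 2.67 and 7.56, so most were weak. Col18a1 had 5, with folds of 23.16 and 20.64 at chr10:77074350-77074481 and of 15.28 and 17.39 at chr10:77069436-77069498. All 5 lay in the last 20% of the gene span.

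Pcnt, Phc2, Fubp3 (a single-strand nucleic acid binding protein), Sap130 (a Sin3 co-repressor subunit), Lrp5 (a Wnt co-receptor) and Fn1 (fibronectin) had 4 loci each in Dif-FGCs only. In Lrp5 the highest was chr19:3622354-3622726, at 19.88 and 9.61. In Fn1 all 4 lay below 10, between 3.12 and 7.47, and only 2 of the 27 loci of Fn1 were in all 4 lists. Fn1 had 15 and 17 peaks in Dif-FGCs and 16 and 5 in FGSCs, and FGSC 2 held few peaks of the gene at any locus. Across genes the strongest locus in Dif-FGCs only was in Cep164, at chr9:45776783-45776926, with folds of 55.84 and 31.10.

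Loci in FGSCs only were fewer per gene, with at most 3, in Syne2. These had folds of 15.52 and 4.09, of 9.53 and 4.12, and of 7.37 and 10.30. Ylpm1, Cbfa2t3 (a transcriptional co-repressor), Kif1c (a kinesin), Setd1b (a histone H3 lysine methyltransferase), Drosha and Actn1 (an actin crosslinker) had 2 each. In Setd1b the locus at chr5:123159870-123160823 had 13.89 and 32.67. Kif1c, Drosha and Actn1 had 0 loci in Dif-FGCs only, whereas Syne2 had 2. The strongest locus in FGSCs only was in Gse1, at chr8:120568161-120568483, with folds of 26.31 and 100.53, far apart between the replicates.

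Peaks per gene were compared between the states in the same way. Both Dif-FGC lists exceeded both FGSC lists in 42 of the 281 genes, or 14.9%, against 6.33% of the 4961 genes with a peak in every list, and both FGSC lists were higher in 20, or 7.12%, against 6.57%. The genes were chosen on these same counts, so nothing is read from the shares. The 42 included Pcnt, Col18a1, Cep164, Cit, Syne3, Lrp5, Phc2 and Sap130, and Fubp3 with 8 and 8 peaks in Dif-FGCs and 5 and 5 in FGSCs. The 20 included Crocc, Drosha (9 and 9 in Dif-FGCs, 13 and 10 in FGSCs), Itpr3, a calcium channel gene (8 and 9, against 12 and 10), Cic, a repressor gene (5 and 5, against 8 and 8), and Eif3a, a translation initiation gene (7 and 6, against 8 and 8). With 2 lists per state the smallest p of an exact permutation test is 0.33, so no single gene could be called.

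Peak length and rank were compared over the lists, with 1 value per list. The median length of the peaks of many-peak genes was 156 and 173 bp in Dif-FGCs and 150 and 145 bp in FGSCs, or 164.5 ± 12.02 against 147.5 ± 3.54 bp (SD, n = 2 each). The values did not overlap between the states and differed by 17 bp, at the smallest p possible (two-sided exact permutation test, p = 0.333). Peaks of the other genes with a peak in every list were longer in each list, at 169 and 215 bp in Dif-FGCs and 162 and 173 bp in FGSCs. The median percentile of fold was 61.3 and 56.9 in Dif-FGCs and 57.5 and 53.2 in FGSCs, a difference of 3.74 points that was within the overlap of the lists (two-sided exact permutation test, p = 0.667).

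The genes were long. Their median span was 61.7 kb, against 27.8 kb for the other genes with a peak in every list. The median number of loci per 10 kb was 2.26, against 1.44, but the rule asks for many peaks and so favours a higher number. Span and the total number of peaks went together across the 281 genes (Pearson r = 0.375 with log10 span, Spearman rho = 0.411 with span). This is a correlation across genes from the same 4 lists, and the genes were chosen on their peak counts. The spans ran from 8.98 kb to 682.3 kb. The genes lay on 20 chromosomes, with the most, 34, on chromosome 5, and 41 of them overlapped another protein-coding gene, for which the lists do not show which gene gave the reads.

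By the gene ontology (GO) terms that the authors attached, the largest keyword group was the cytoskeleton, with 83 of the 278 genes that had a term, or 29.9%, against 15.8% of the other genes with a peak in every list. Its leading genes were Pcnt, Crocc, Cep164 and Syne3, and 342 of its 1324 loci, or 25.8%, were in all 4 lists. Transcription followed with 74 genes (26.6%, against 21.4%), with Tnrc18, Zmiz1 and the chromatin remodelling gene Smarcc1 among those with the most peaks. Chromatin organisation had 46 genes (16.5%, against 11.8%), among them the DNA methyltransferase genes Dnmt1 and Dnmt3a and the remodelling genes Smarca4 and Arid1a. The cell cycle had 32 (11.5%, against 8.20%), with Pcnt, Crocc, Cep164 and Cit in front. Ubiquitin went the other way, with 18 genes (6.47%, against 8.75%). Genes can be in several groups, and the groups are keyword matches. Neither the shares nor the part of gene length in them was tested.

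The groups also differed in the share of loci held in all 4 lists. RNA processing had 15 genes, led by Hnrnpm, Sfswap, Sart3 and Cdk11b, and 77 of its 170 loci, or 45.3%, were in all 4 lists. Translation had 11, led by Eif4g3, Rrbp1, Gigyf2 and Eif5b, with 60 of 148, or 40.5%. Cell adhesion and extracellular matrix had 30, led by Col18a1, Triobp, Myh9 and Prex1, with 107 of 608, or 17.6%. The share varied between the genes of this keyword group, with 0 of 40 loci in Dst and 2 of 53 in Hspg2, but 8 of 12 in Hnrnpm and 5 of 7 in Wash1. Hnrnpm was also in the RNA processing group. DNA repair, with 7 genes, had 40 of 95, or 42.1%. Over the 281 genes the share was 28.9%, the groups overlap, and the difference between groups was not tested. Wnt signalling, with 7 genes led by Ccdc88c, Lrp5, Leo1 and Tle3, had the highest share in Dif-FGCs only, 10 of 97 loci or 10.3%, of which Lrp5 gave 4, and also the highest share in FGSCs only, 5 loci or 5.15%. The germ cell and gamete group had 12 genes, led by Eif4g3, Cit, Myh9 and Map7. Of its 178 loci, 15, or 8.43%, were in Dif-FGCs only, 6 of them in Cit and 4 in Phc2. A further 5, or 2.81%, were in FGSCs only. Over the 281 genes the shares were 5.27% in Dif-FGCs only and 2.63% in FGSCs only, and over the loci of all genes 3.65% and 3.61%.

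**Figure D5:**
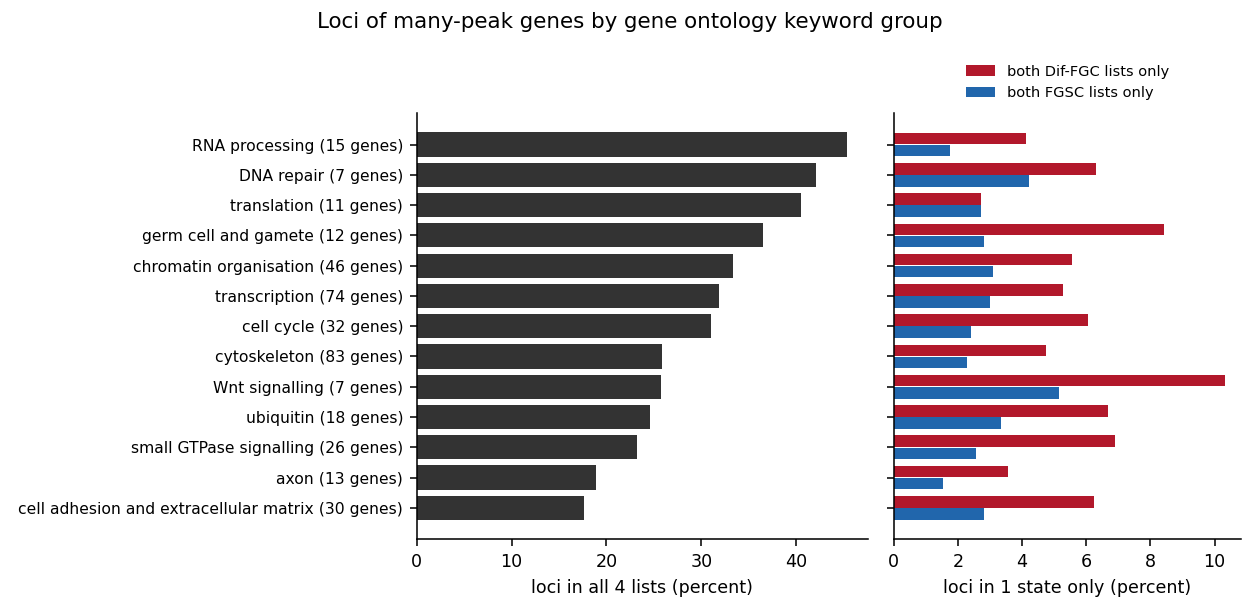
Left, percent of the loci of many-peak genes held in all 4 lists by GO keyword group (rows, number of genes in brackets), from RNA processing (45.3%) down to cell adhesion and extracellular matrix (17.6%). Right, percent of loci in both Dif-FGC lists only (red) and both FGSC lists only (blue), both highest in Wnt signalling (10.3% in Dif-FGCs only and 5.15% in FGSCs only).

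A KEGG pathway was attached to 85 of the 281 genes. The largest pathway was endocytosis with 9 genes, among them Dnm2 (dynamin), Hgs and Smurf1, which is 10.6%, against 6.31% of the 1727 other genes with a pathway. RNA transport, proteoglycans in cancer, regulation of the actin cytoskeleton and viral carcinogenesis followed with 8 each, or 9.41%, against 3.53%, 4.57%, 4.69% and 4.81% of the other genes. Metabolic pathways went the other way, with 5 genes or 5.88%, against 17.7%. Pathways in cancer, with 7 genes, was alike in both at 8.24%, against 8.11%. These shares were not tested. RNA transport (Eif4g3, Eif5b, Eif3a, Nup214, Upf3a, Upf3b, Srrm1 and Cyfip2) had 48 of 104 loci in all 4 lists, 4 in Dif-FGCs only and 1 in FGSCs only. The spliceosome, with 7 genes or 8.24%, against 3.30% of the other genes (among them Hnrnpm, Ddx46, Dhx38, Rbm17, Wbp11 and Cherp), had 35 of 74 in all 4 lists, 0 in Dif-FGCs only and 2 in FGSCs only. Proteoglycans in cancer, which included Fn1, Hspg2 and Ezr, had 28 of 162 in all 4 lists, 8 in Dif-FGCs only and 3 in FGSCs only. Over the 281 genes 28.9% of the loci were in all 4 lists, 5.27% in Dif-FGCs only and 2.63% in FGSCs only. Over the loci of all genes these shares were 15.5%, 3.65% and 3.61%. The pathways hold few loci, share genes with the GO groups, and their locus counts were not tested.

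None of the 281 genes stood on a list of cell type markers. Fibroblast and stroma markers (7 of 8 with a peak, among them Col1a1, Col3a1 and Dcn) had 5 and 2 peaks in the Dif-FGC lists and 22 and 13 in the FGSC lists. Granulosa cell markers (7 of 11) had 15 and 4 in Dif-FGCs and 6 and 5 in FGSCs. The fibroblast counts did not overlap between the states and the granulosa counts did. Among the matrix genes, the peak counts of Fn1 and Hspg2 overlapped and those of Col18a1 were higher in both Dif-FGC lists, and the part of these markers in the matrix loci was not tested. In such bulk samples fewer cells of a type and less RNA per cell cannot be told apart. Macrophage and leukocyte markers had peaks in 4 of 5 genes (Ptprc, Adgre1, Csf1r and Laptm5), with 4 and 1 in Dif-FGCs and 1 and 3 in FGSCs. Germline markers had peaks in 7 of 13 genes (Prdm1, Ifitm3, Itga6, Etv4, Etv5, Gfra1 and Zbtb16), with 11 and 10 in Dif-FGCs and 15 and 11 in FGSCs, and meiosis markers in 1 of 6 (Rec8), with 0 and 1 peaks in Dif-FGCs and 1 and 1 in FGSCs. Ddx4, Dazl, Stra8 and Sycp3 had no peak in any list, and neither did any of the 4 endothelial markers.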

How the data were processed

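acRIP-seq IP and input libraries of Dif-FGCs and FGSCs (2 replicates of each) were sequenced after ribosomal RNA depletion. The submitters' processing notes name cutadapt, HISAT2, MACS2 and the mm10 build, and versions are not given in the sources used here. The authors called peaks for each IP library and deposited 1 list per library, limited to mRNA. Of the deposited columns, the fold is a ratio (IP to input), the peak score is 10 times the negative log10 of the p-value, the false discovery rate is a percent, and length is in bp. Peak sets therefore depend on IP and input depth, which the lists do not give, so read counts and a test per peak were not possible.

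Groups and replicate numbers came from the sample titles. Peaks that overlapped by at least 1 bp over the 4 lists were merged into loci, and loci were classed by the lists with a peak. A gene counted as many-peak at 5 or more peaks per list. List medians were compared with two-sided exact permutation tests, and the merging step was tested on simulated peaks. Gene spans and start windows (250 bases before to 50 after each start) came from RefSeq, GRCm38.p6. All 281 genes matched: 271 through their symbol, 7 through the gene identifier and 3 through an older name. GO groups were keyword searches of the authors' GO column. Pandas 2.3.3 and NumPy 2.4.6 were used under Python 3.11.15. Columns of other samples numbered 0.

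The genes named are the 12 with the highest lowest count, those with the most loci or highest share of loci in all 4 lists, those with the most loci in 1 state only (8 each), the strongest loci of each class, the 5 on each side of the minimum and the leading genes of the GO groups and pathways. Genes with exceptional loci (Dst, Cntrl, Ltbp4, Lrrk1, Cramp1l, Med16, Hspg2, Utrn, Dnmt1, Spen, Fam193a, Triobp, Rufy2, Itpr3, Cic and Eif3a) were named after their values were seen. The genes, lists and keyword groups were chosen with earlier results of these data known. Some genes that this rule takes are not reported here.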

Additional observations from a re-analysis of the deposited data

How the results depend on the processing

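The number of many-peak genes, 281, followed the rule. It was 488, 157, 67 and 25 at a minimum of 4, 6, 8 and 10 peaks, 158 with lists cut to equal length and 68 when only the 50% of peaks with the highest fold per list were used. Leaving out 1 list gave 292 to 410 genes.

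Of the loci, 1140 were in all 4 lists, 208 in Dif-FGCs only and 104 in FGSCs only. At equal list length the FGSC-only count was 62, with 224 in Dif-FGCs only. In the 50% with the higher fold 601 loci were in all lists, 161 in Dif-FGCs only and 52 in FGSCs only. With a peak in at least 1 replicate as the rule, 2274 loci were in both states, 785 in Dif-FGCs only and 888 in FGSCs only, so the balance turned. At a minimum of 4 peaks 340 and 168 loci were in Dif-FGCs only and FGSCs only. At 6 peaks 124 were in Dif-FGCs only and 71 in FGSCs only. At 8 peaks the counts were 450, 66 and 32 for all lists, Dif-FGCs only and FGSCs only, and at 10 peaks 213, 29 and 12. Counted as single peaks they were 4576, 430 and 209 of 9583 peaks. Leaving out 1 list gave 1210 to 1500 loci in all remaining lists, 355 to 625 in Dif-FGCs only and 174 to 607 in FGSCs only, and without FGSC 2 the FGSC-only count (607) was above the Dif-FGC-only count (355). The state with 1 list left then needed a peak in that list alone, and the other state still in both, so these thresholds are not alike.

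Genes with more peaks in both FGSC lists numbered 13 at equal list length and 7 in the 50% with the higher fold, against 20. Those with more peaks in both Dif-FGC lists numbered 61 and 46, against 42. These settings were added after seeing the data. The length difference of 17 bp ran from 8.5 to 25.5 bp, and that of the fold percentile, 3.74, from 1.52 to 5.95, when 1 list was left out. With the replicate number as a block the differences were 17 bp and 3.74 points (exact sign changes, p = 0.5 for each, the smallest possible with 2 pairs). The labels do not say that a number marks a shared culture. The share of loci in all lists was between 38.8% and 45.3% for RNA processing genes and between 16.2% and 17.6% for adhesion and matrix genes in the full lists, at equal list length, in the 50% with the higher fold and at an overlap of 50% of the shorter peak. The cause of the counts that moved was not tested, beyond the smaller number of genes, peaks or lists in each setting.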
